A study of Mus musculus with 12 samples.

Results

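The 10 genes of the elastic fibre described here were followed in mouse dermis: Eln, Fbn1, Fbn2, Fbln1, Fbln2, Fbln5, Efemp1, Efemp2, Mfap4 and Mfap5. They were chosen by symbol, with earlier results of these data known, and all 10 were found among the 55401 genes of the deposited table. From day 0 to day 7 of a wounding experiment Fbn2 rose 4.95-fold in wild-type (WT) and 4.12-fold in Cthrc1-/- dermis, Fbln2 rose 2.67-fold and 4.17-fold, and Efemp2 rose 3.80-fold in WT. The WT Efemp2 log2 change of 1.93 was 0.92 without WT day 7 replicate 1, and the call was lost. In Cthrc1-/- Efemp2 was 3.78 to 5.42 FPKM at day 0 and 10.02 to 14.2 FPKM at day 7, and edgeR did not call it. Without WT day 7 replicate 1 its Cthrc1-/- log2 change was 1.27 and was called (edgeR adjusted p 0.0165). With each library left out in turn, both Fbln2 calls were lost in 9 of 12 fits and the WT Efemp2 call in 8. The Cthrc1-/- call of Fbn2 was lost in 5, and the WT call of Fbn2 stood in all 12. Between genotypes, edgeR called 0 of the 10 on either day, against 5.78% of all genes at day 0 and 0.021% at day 7. At day 0, 8 of the 10 lay lower in every Cthrc1-/- library than in every WT library, against 19.8% of all genes. As the members were chosen with earlier results known, this share is a description and not an independent test. Of 6 fibroblast marker genes, 6 were lower in Cthrc1-/- at day 0 as well. So were all markers listed for adipocytes, smooth muscle, skeletal muscle and endothelium, and most for keratinocytes and for macrophages and neutrophils. Of 6 hair follicle markers, 6 were higher. The part of these cell types in the members' values was not tested.

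The samples were dermis of C57BL/6 mice aged 6 weeks, analysed by RNA-seq. Mice of the WT and the Cthrc1-/- genotype were each sampled at day 0 and at day 7, with 3 biological replicates for each genotype and day and 12 samples in all, and the series describes equally sized wounds in pairs. Cthrc1 encodes a secreted protein with a collagen triple helix repeat. The labels name neither the form of the Cthrc1 deletion nor the part of the wound that was taken.

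Elastic fibres give skin its recoil. They hold a core of crosslinked elastin, made from the soluble precursor tropoelastin, on a scaffold of fibrillin microfibrils. Fibulins, with the related EFEMP proteins, link tropoelastin, microfibrils and lysyl oxidases during assembly, and microfibril-associated proteins sit on the scaffold. In skin these proteins come mainly from dermal fibroblasts.

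Total counts ranged from 48329668 to 76938132 per sample. Cthrc1 was 21.1 to 106 FPKM in WT libraries and at most 0.151 FPKM in Cthrc1-/- libraries, where FPKM is a fragment count scaled for transcript length and library depth. Summed fibroblast markers (Pdgfra, Col1a1, Col1a2, Col3a1, Dcn and Lum) were 4814 to 6441 FPKM at day 0 and 3521 to 5251 FPKM at day 7 in WT, and 337 to 2386 FPKM and 2193 to 3447 FPKM in Cthrc1-/-. Summed hair follicle markers (6 inner root sheath genes) were 2.77 to 5.39 FPKM in WT day 0, with Krt25 and Krt73 at 0 in replicate 1, against 227 to 11423 FPKM in Cthrc1-/- day 0. On day 7 those sums were 1663 to 3911 FPKM in WT and 504 to 5223 FPKM in Cthrc1-/-. Epidermal keratins (Krt1, Krt5, Krt10 and Krt14) summed to between 2226 and 9188 FPKM, so transcripts of epidermis were present in every library labelled dermis. A pair of libraries stood apart: Cthrc1-/- day 0 replicate 3 had the lowest fibroblast sum and the highest hair follicle sum, and WT day 7 replicate 1 had the highest macrophage and neutrophil sum (5641 FPKM, against 315 to 1508 FPKM in the other day 7 libraries). In bulk samples, fewer cells of a type and less RNA per cell cannot be told apart.

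**Figure D1:**
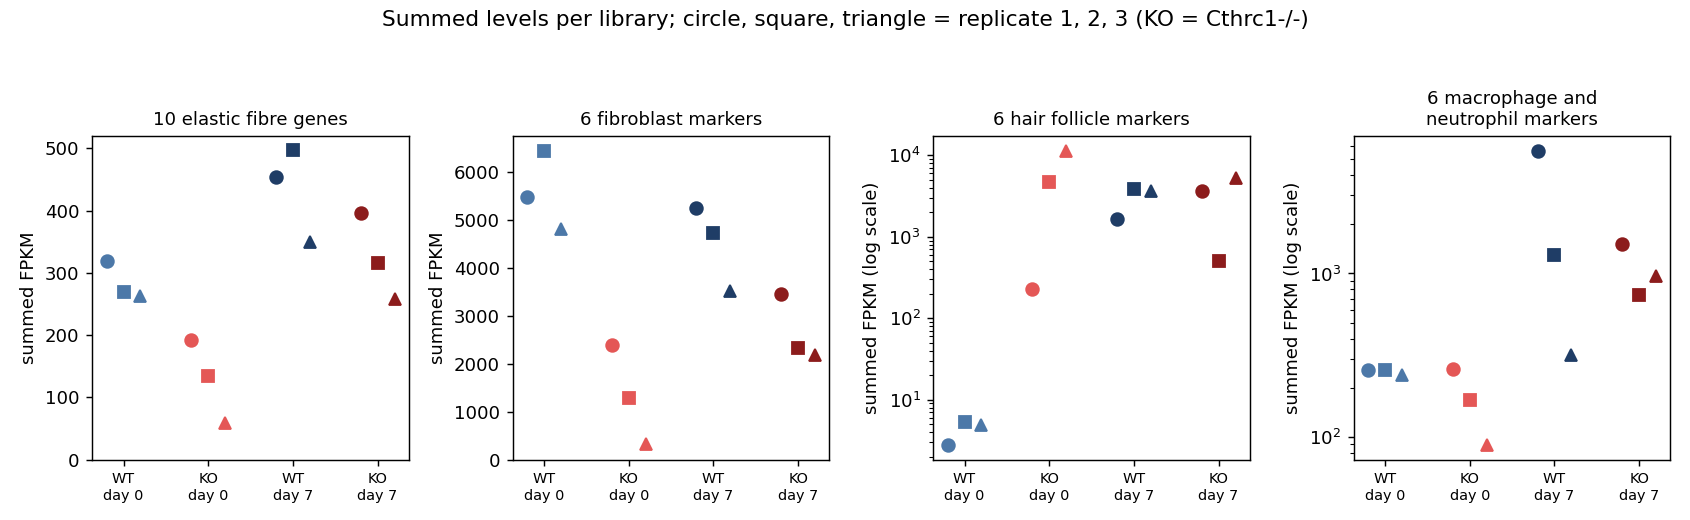
Summed FPKM per library (y axis, logarithmic where so labelled) of the 10 elastic fibre genes and of 3 marker lists, by group (x axis), with 1 point per replicate. The elastic fibre sum was 58.8 to 192 FPKM in Cthrc1-/- day 0, below the other 9 libraries.

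Per transcript length, Mfap4 was the highest member in WT day 0 dermis at 73.2 ± 16.7 FPKM (mean ± SD, n = 3), followed by Eln at 57.4 ± 4.03 FPKM and Efemp1 at 46.7 ± 0.985 FPKM. Fbln2 (27.8 ± 4.52 FPKM), Fbln1 (27.6 ± 0.836 FPKM) and Fbn1 (22.3 ± 2.35 FPKM) were intermediate. Mfap5 (11.2 ± 3.80 FPKM), Fbln5 (10.7 ± 1.64 FPKM) and Efemp2 (6.66 ± 0.730 FPKM) were lower, and Fbn2 was lowest at 0.587 ± 0.277 FPKM. The ranges of neighbours in this order overlapped for Mfap4 with Eln, Fbln2 with Fbln1 and Mfap5 with Fbln5. On day 7 in WT, Mfap4 (117 ± 52.9 FPKM) was again highest and Fbn2 (3.34 ± 1.11 FPKM) lowest, while the mean of Fbln2 (83.7 ± 18.5 FPKM) lay above that of Eln (52.2 ± 23.9 FPKM) and the mean of Efemp1 (24.9 ± 12.1 FPKM) below that of Fbn1 (44.2 ± 23.3 FPKM).

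**Figure D2:**
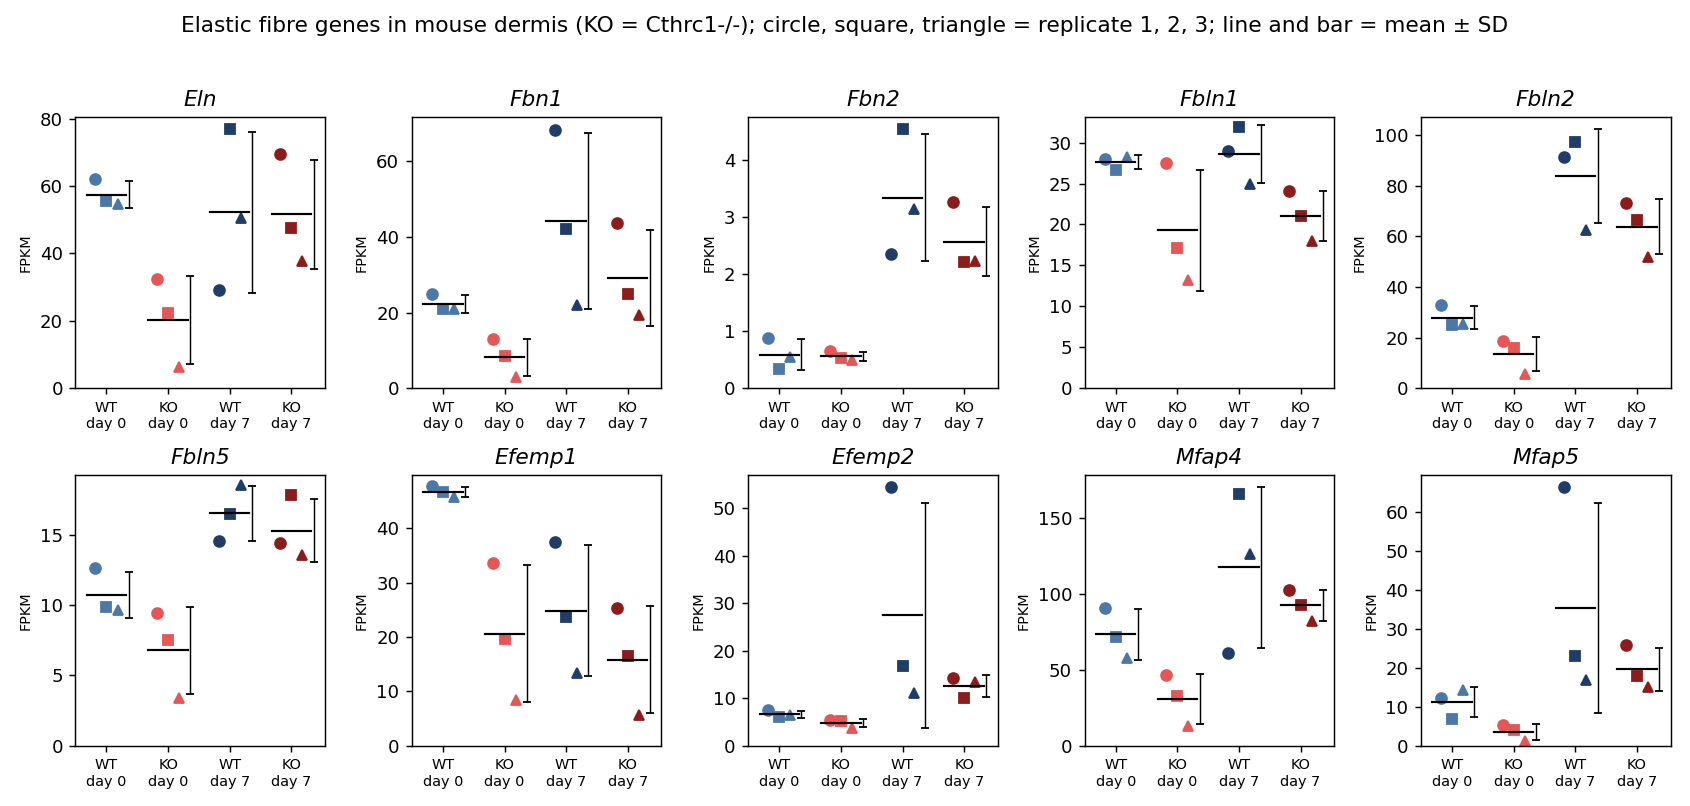
FPKM (y axis) of each of the 10 members in the 4 groups (x axis), with 1 point per replicate and the mean ± SD. For Eln the Cthrc1-/- day 0 points lie at 6.41 to 32.3 FPKM against 54.7 to 62.1 FPKM in WT day 0, and for Fbn2 all day 7 points lie above all day 0 points.

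The elastin core comes from 1 gene. Eln (ENSMUSG00000029675, chr5:134702593-134747323, minus strand), positions here and after on GRCm38, encodes tropoelastin and was 62.1, 55.5 and 54.7 FPKM in WT day 0 replicates 1 to 3 and 32.3, 22.2 and 6.41 FPKM in Cthrc1-/- day 0. Its day 7 levels were 29.2, 76.9 and 50.6 FPKM in WT and 69.4, 47.6 and 37.7 FPKM in Cthrc1-/-. Outside Cthrc1-/- day 0, WT day 7 replicate 1 alone was that low, and the day 7 groups overlapped. Between genotypes at day 0 its log2 change was -1.57 (SE 0.53, edgeR adjusted p 0.0951), which missed the threshold of 0.05. DESeq2 put it past the threshold (adjusted p 0.0219), as did edgeR without Cthrc1-/- day 0 replicate 1 (adjusted p 0.0395). At day 7 the difference between genotypes was -0.07 (SE 0.52, edgeR adjusted p 0.998), and with limma on log2(FPKM + 1) it was 0.04, below the median of all genes in that fit (0.06). The edgeR value was 0.31 without WT day 7 replicate 2 and 0.12 without Cthrc1-/- day 7 replicate 3. Between days Eln had log2 changes of -0.35 (SE 0.52, edgeR adjusted p 0.687) in WT and 1.15 (SE 0.53, edgeR adjusted p 0.280) in Cthrc1-/-. The difference of these changes, the interaction of genotype and day, was 1.499 (SE 0.74, edgeR adjusted p 0.364) and did not pass.

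Fibrillins form the microfibrils: Fbn1 encodes the main form of adult tissue and Fbn2 a form best known from development. Fbn1 (ENSMUSG00000027204, chr2:125300594-125507993, minus strand) was 25.0, 20.9 and 21.0 FPKM in WT day 0 and 12.9, 8.55 and 2.92 FPKM in Cthrc1-/- day 0. In the day 7 libraries Fbn1 was 68.4, 42.1 and 22.0 FPKM for WT and 43.6, 24.8 and 19.4 FPKM for Cthrc1-/-. All 3 Cthrc1-/- day 0 libraries lay below the other 9, and the WT day 7 replicates spread widely with replicate 1 highest. By edgeR no comparison of Fbn1 passed: the day 0 difference between genotypes was -1.53 (SE 0.59, edgeR adjusted p 0.126) and the change between days 0.85 (SE 0.58, edgeR adjusted p 0.338) in WT. The day 0 difference passed with DESeq2 (adjusted p 0.0439). In Cthrc1-/- the change between days was 1.66 (SE 0.59, edgeR adjusted p 0.172), and DESeq2 gave an adjusted p of 0.0368.

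Fbn2 (ENSMUSG00000024598, chr18:58008623-58210487, minus strand) was 0.881, 0.331 and 0.550 FPKM in WT day 0 and 0.645, 0.528 and 0.496 FPKM in Cthrc1-/- day 0. Day 7 levels of Fbn2 were 2.35, 4.54 and 3.13 FPKM in WT and 3.27, 2.21 and 2.22 FPKM in Cthrc1-/-. Every day 7 library was above every day 0 library, and the genotypes overlapped on each day. Fbn2 rose between days by 2.31 on the log2 scale in WT (SE 0.36, edgeR adjusted p 0.00631) and by 2.04 in Cthrc1-/- (SE 0.36, edgeR adjusted p 0.0331), with an interaction of -0.27 (SE 0.49, edgeR adjusted p 0.815). Its mean was under the filter of 1 FPKM in both day 0 groups, so it entered the test through its day 7 level; with no filter the edgeR adjusted p was 0.00731 in WT and 0.0346 in Cthrc1-/-. In WT the call stood without each of the 12 libraries in turn. The Cthrc1-/- call was lost in 5 of those 12 fits, with log2 changes from 1.83 to 2.20 over all 12. The edgeR adjusted p was 0.0630 without WT day 0 replicate 3, 0.115 without Cthrc1-/- day 0 replicate 2, and 0.117, 0.0689 and 0.0565 without Cthrc1-/- day 7 replicate 1, 2 or 3.

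The ratio of Fbn2 to Fbn1 FPKM within a library does not depend on how libraries are scaled. It was 0.0352, 0.0158 and 0.0262 in WT day 0 and 0.05005, 0.0618 and 0.170 in Cthrc1-/- day 0. For day 7 the ratio was 0.0343, 0.108 and 0.142 in WT and 0.0749, 0.0891 and 0.115 in Cthrc1-/-. The 3 WT day 0 libraries and WT day 7 replicate 1 were lowest, and Fbn1 was the more abundant fibrillin in all 12 libraries. This ratio and that of the EFEMP genes were chosen after their values had been seen and were not tested.

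Of the fibulins, Fbln2 (ENSMUSG00000064080, chr6:91212455-91272540, plus strand) encodes fibulin-2, a matrix protein that binds fibrillin-1 and fibronectin. Its levels were 33.0, 25.0 and 25.5 FPKM in WT day 0 and 18.7, 16.0 and 5.68 FPKM in Cthrc1-/- day 0. After wounding they were 91.3, 97.2 and 62.6 FPKM in WT and 73.0, 66.3 and 51.8 FPKM in Cthrc1-/- (day 7). From low to high the groups ran Cthrc1-/- day 0, WT day 0, Cthrc1-/- day 7, WT day 7, and among neighbours the day 7 groups alone overlapped. Fbln2 rose between days by 1.42 on the log2 scale in WT (SE 0.41, edgeR adjusted p 0.0474) and 2.06 in Cthrc1-/- (SE 0.42, edgeR adjusted p 0.0440). Each call was lost in 9 of the 12 fits without 1 library, with log2 changes from 1.33 to 1.63 in WT and 1.67 to 2.40 in Cthrc1-/-. The WT call stood without Cthrc1-/- day 0 replicate 1 or 3 or WT day 7 replicate 3, and the Cthrc1-/- call without Cthrc1-/- day 0 replicate 3 or WT day 7 replicate 1 or 3. The highest edgeR adjusted p was 0.140 in WT, without WT day 0 replicate 2, and 0.141 in Cthrc1-/-, without Cthrc1-/- day 7 replicate 1. The Cthrc1-/- call was also lost with only the groups compared in the fit (edgeR adjusted p 0.102), and both calls with no filter (edgeR adjusted p 0.0644 in WT and 0.0506 in Cthrc1-/-). At day 0 the difference between genotypes was -1.13 (SE 0.41, edgeR adjusted p 0.109), and DESeq2 gave an adjusted p of 0.0423.

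Fbln5 (ENSMUSG00000021186, chr12:101746565-101819055, minus strand) encodes fibulin-5, which binds tropoelastin and integrins and is needed for elastic fibres in mice. Its level was 12.6, 9.87 and 9.67 FPKM in WT day 0 and 9.43, 7.50 and 3.41 FPKM in Cthrc1-/- day 0, and 14.5, 16.5 and 18.5 FPKM and 14.4, 17.9 and 13.6 FPKM in the same genotypes at day 7. Within each genotype the days did not overlap, but the log2 changes of 0.43 (SE 0.32, edgeR adjusted p 0.385) in WT and 0.99 (SE 0.33, edgeR adjusted p 0.144) in Cthrc1-/- did not pass. The Cthrc1-/- change passed with DESeq2 (adjusted p 0.0367) and with limma on log2(FPKM + 1) (p 0.0411 after adjustment).

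Fbln1 (ENSMUSG00000006369, chr15:85205949-85286535, plus strand) encodes fibulin-1, found in elastic fibres and basement membranes. It was 27.9, 26.7 and 28.3 FPKM in WT day 0 and 27.5, 17.1 and 13.2 FPKM in Cthrc1-/- day 0, and 29.0, 31.9 and 24.9 FPKM and 24.1, 21.0 and 17.95 FPKM at day 7. Among the members it alone had no overlap between genotypes at day 7, where the difference was -0.53 (SE 0.27, edgeR adjusted p 0.931) and did not pass. Between days its log2 change was -0.13 in WT and -0.05 in Cthrc1-/- (edgeR adjusted p 0.775 and 0.950), and both signs turned with total-count scaling, to 0.06 and 0.14. That scaling put the median of all genes at 0.196 in WT and 0.158 in Cthrc1-/-, so relative to it both Fbln1 values stayed below 0. In Cthrc1-/- Fbln1 lay above the all-gene median with limma on log2(FPKM + 1), at 0.17 against 0.126. It did so too with limma on log2(FPKM + 0.1), at 0.18 against 0.156, and with a mean of at least 5 FPKM, at 0.0437 against 0.0141.

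The EFEMP genes encode the short fibulins fibulin-3 (Efemp1) and fibulin-4 (Efemp2). Fibulin-4 brings lysyl oxidase to tropoelastin and is required for elastic fibres. The promoters of this pair of paralogs are shown because the ratio of their transcripts differed between the days. Both stretches are the plus strand from 250 to 11 bases before a RefSeq start on GRCm38.p6 (for Efemp2 the first of 3 starts), 240 bases each. Capitals mark the GC box GGGCGG, the core of the Sp1 motif, on either strand (CCGCCC is its reverse complement).
Efemp1, chr11:28852955-28853194: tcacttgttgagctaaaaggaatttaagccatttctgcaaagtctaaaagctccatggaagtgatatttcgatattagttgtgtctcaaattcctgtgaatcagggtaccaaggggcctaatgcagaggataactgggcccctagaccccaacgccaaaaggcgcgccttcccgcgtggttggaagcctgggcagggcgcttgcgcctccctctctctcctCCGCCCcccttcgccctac
Efemp2, chr19:5473696-5473935: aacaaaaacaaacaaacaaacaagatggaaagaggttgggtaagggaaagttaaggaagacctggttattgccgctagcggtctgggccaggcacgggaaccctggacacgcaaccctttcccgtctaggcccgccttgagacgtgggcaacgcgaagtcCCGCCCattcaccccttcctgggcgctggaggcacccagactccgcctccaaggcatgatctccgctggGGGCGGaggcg

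The Efemp1 stretch held 1 GC box and the Efemp2 stretch 2. Of 32851 RefSeq promoters, 32.7% held GGGCGG on either strand within 250 bases before the start. The other motifs searched in this window, both strands, were TATAAA (12.4% of promoters), TGACTCA (4.46%), CAGACA (17.1%) and CACGTG (6.02%), and neither gene's windows held them. The table had promoters for 6 of the 10 members. Each of the 6 had GGGCGG in at least 1 window, Fbln1 and Fbln5 had CAGACA, and Fbln1 had CACGTG. Efemp2, Fbln1 and Fbln5 had more than 1 window, and in Fbln1 and Fbln5 not every window held GGGCGG. The percentages above are per promoter and not per gene, so they are not on the scale of these counts. Eln, Fbn2, Mfap4 and Mfap5 had no entry.

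Efemp1 (ENSMUSG00000020467, chr11:28853204-28926743, plus strand) was 47.8, 46.6 and 45.8 FPKM in WT day 0 and 33.6, 19.7 and 8.49 FPKM in Cthrc1-/- day 0. Day 7 values were 37.5, 23.7 and 13.4 FPKM in WT and 25.4, 16.5 and 5.64 FPKM in Cthrc1-/-. The WT day 0 libraries were above the other 9, which overlapped between groups. Its difference between genotypes at day 0 was -1.25 (SE 0.63, edgeR adjusted p 0.217) and its change between days in WT -1.05 (SE 0.63, edgeR adjusted p 0.274), and neither passed.

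Efemp2 (ENSMUSG00000024909, chr19:5473954-5482517, plus strand) was 7.49, 6.11 and 6.38 FPKM in WT day 0 and 5.42, 5.18 and 3.78 FPKM in Cthrc1-/- day 0. Day 7 libraries gave 54.4, 16.7 and 11.01 FPKM in WT and 14.2, 10.02 and 13.5 FPKM in Cthrc1-/-. All day 7 libraries were above all day 0 libraries, and WT day 7 replicate 1 was far above the rest. Efemp2 rose between days in WT by 1.93 on the log2 scale (SE 0.54, edgeR adjusted p 0.0437). Without WT day 7 replicate 1, the library with the highest macrophage and neutrophil sum, the log2 change was 0.92 and the call was lost (edgeR adjusted p 0.0502). It was lost in 8 of the 12 fits without 1 library: any of the 3 WT day 0 or the 3 Cthrc1-/- day 7 replicates, Cthrc1-/- day 0 replicate 2 or WT day 7 replicate 1 (highest edgeR adjusted p 0.128). The call was lost too with only the groups compared in the fit (edgeR adjusted p 0.109) and with no filter (edgeR adjusted p 0.0596). In Cthrc1-/- the change was 1.22 (SE 0.53, edgeR adjusted p 0.263), and 1.27 with an edgeR adjusted p of 0.0165 when WT day 7 replicate 1 was left out of the shared estimate of spread. Between genotypes at day 7 it was -1.27 (SE 0.53, edgeR adjusted p 0.907). Exons of Efemp2 overlap Mus81 (mean 3.58 FPKM) and those of Mfap4 overlap Mapk7 (mean 5.87 FPKM) on the opposite strand, and whether the counting used strand is not stated.

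The ratio of Efemp2 to Efemp1 FPKM was 0.157, 0.131 and 0.139 in WT day 0 and 0.161, 0.263 and 0.445 in Cthrc1-/- day 0. In day 7 libraries it was 1.45, 0.707 and 0.821 in WT and 0.559, 0.607 and 2.39 in Cthrc1-/-. Every day 7 library was above every day 0 library. Fibulin-4 transcripts were in excess in WT day 7 replicate 1 and Cthrc1-/- day 7 replicate 3, and fibulin-3 transcripts in the other 10 libraries.

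**Figure D3:**
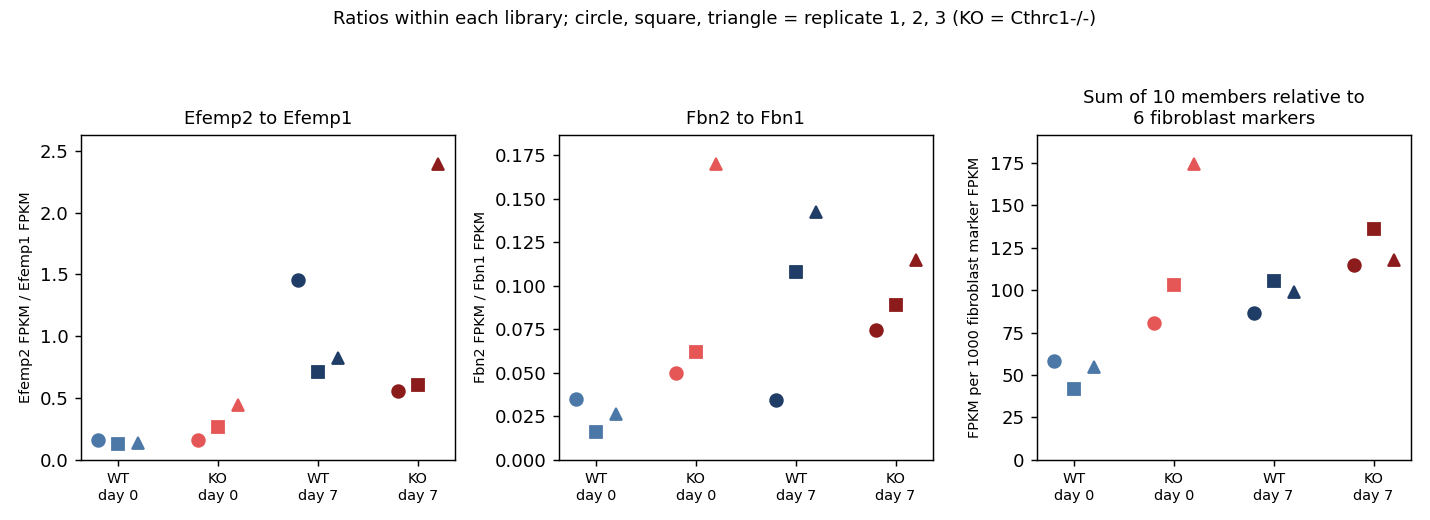
Ratio of Efemp2 to Efemp1 FPKM, ratio of Fbn2 to Fbn1 FPKM, and summed FPKM of the 10 members per 1000 FPKM of 6 fibroblast markers (y axes, linear from 0), by group (x axis) with 1 point per replicate. All day 7 points of the Efemp2 to Efemp1 ratio lie above all day 0 points.

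Among the microfibril-associated genes, Mfap4 (ENSMUSG00000042436, chr11:61485431-61488900, plus strand), whose product binds tropoelastin and fibrillin, was 90.7, 71.3 and 57.6 FPKM in WT day 0 and 46.2, 32.8 and 13.2 FPKM in Cthrc1-/- day 0. At day 7 Mfap4 was 60.7, 165 and 126 FPKM in WT and 102, 92.6 and 81.9 FPKM in Cthrc1-/-. The 3 Cthrc1-/- day 0 libraries were lowest, and WT day 7 replicate 1 was low for its group, as for Eln. The difference between genotypes at day 0 was -1.32 (SE 0.45, edgeR adjusted p 0.0949) and the change between days in Cthrc1-/- 1.40 (SE 0.45, edgeR adjusted p 0.136). DESeq2 put both past the threshold (adjusted p 0.0269 and 0.0233). The WT change between days was 0.47 (SE 0.44, edgeR adjusted p 0.497).

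Mfap5 (ENSMUSG00000030116, chr6:122505845-122529290, plus strand), the gene of the fibrillin-binding glycoprotein MAGP-2, was 12.3, 7.00 and 14.4 FPKM in WT day 0 and 5.22, 4.19 and 1.13 FPKM in Cthrc1-/- day 0. At day 7 Mfap5 was 66.4, 23.0 and 17.0 FPKM in WT and 25.9, 17.8 and 15.2 FPKM in Cthrc1-/-. Every day 7 library was above every day 0 library, and WT day 7 replicate 1 was highest, as for Fbn1 and Efemp2. The change between days was 2.29 (SE 0.68, edgeR adjusted p 0.114) in Cthrc1-/- and 1.54 (SE 0.66, edgeR adjusted p 0.139) in WT. Neither passed, but in Cthrc1-/- the adjusted p was 0.00668 with DESeq2, 0.0365 with limma on log2(FPKM + 1) and 0.0332 with edgeR without WT day 7 replicate 1.

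Across the 10 members, log2 changes between genotypes at day 0 were all below 0 with edgeR (Fbn2 was 0.00749 with limma on log2(FPKM + 0.1), below the all-gene median of 0.0465 in that fit), with a median of -1.19 against -0.05 over all 14313 genes tested. Without WT day 0 replicate 1, edgeR put Fbn2 at 0.23, above the all-gene median of -0.0456 in that fit. By edgeR 0 of 10 were called, where 5.78% of all genes were called and 2.26% called lower. An unadjusted p under 0.05 was reached by 7 of 10, against 14.8% of all genes in that direction. DESeq2 called 5 lower (Eln, Fbn1, Fbln2, Mfap4 and Mfap5), where it called 8.24% of all genes lower. The FPKM ranges did not overlap for 8 members, all lower in Cthrc1-/- (the exceptions were Fbn2 and Fbln1), against 19.8% of all genes. Fibroblast markers were lower in 6 of 6 with a median log2 change of -1.84, of which edgeR called Col1a2, and 6 of 6 hair follicle markers were called higher with a median of 10.63. Markers of smooth muscle (4 of 4 lower, 2 called, median -1.46), adipocytes (4 of 4 lower, 0 called, median -1.97) and skeletal muscle (6 of 6 lower, 0 called, median -1.55) were lower as well. So were, with 0 called, most markers of endothelium (3 of 3, median -0.76), macrophages and neutrophils (4 of 6, median -1.01) and keratinocytes (3 of 4, median -0.76). Of the marker lists, that of the hair follicle alone had a median above 0. The part of these cell types in the members' values was not tested. Without Cthrc1-/- day 0 replicate 3 the members' median was -0.80 with 0 called, and without replicate 1 of that group 3 were called lower (Eln, Fbln1 and Mfap4), where 7.30% of all genes were.

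**Figure D4:**
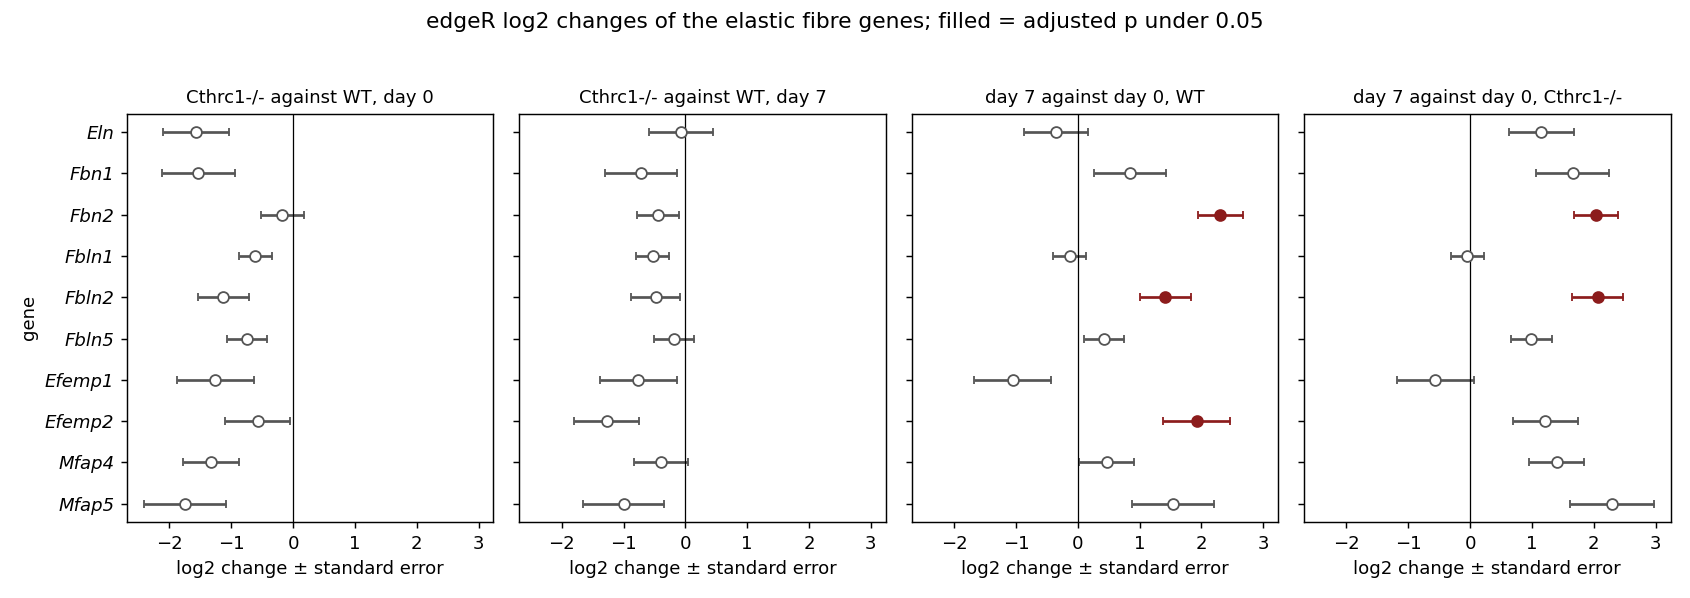
edgeR log2 change with its standard error (x axis) of each member (y axis) in each comparison, with filled points at an adjusted p under 0.05. All 10 members lie below 0 in both comparisons of genotypes with no filled point (with limma Eln at day 7 and, on log2(FPKM + 0.1), Fbn2 at day 0 lie above 0 but below the all-gene median). In edgeR fits without 1 library, Eln at day 7 reached 0.31 and Fbn2 at day 0 reached 0.23, above the all-gene median. The filled points are Fbn2, Fbln2 and Efemp2 between days in WT and Fbn2 and Fbln2 in Cthrc1-/-.

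At day 7 the members' log2 changes between genotypes had a median of -0.50, against -0.01 over all genes, and all 10 were below 0 with edgeR (Eln was above 0 with limma). Eln was also above 0 with edgeR without WT day 7 replicate 2 (0.31) or Cthrc1-/- day 7 replicate 3 (0.12). Neither edgeR nor DESeq2 called any of the 10, where edgeR called 0.021% of all genes and DESeq2 0.433%. Efemp2 was the 1 member with an unadjusted edgeR p under 0.05, against 5.46% of all genes in either direction and 3.14% lower. The groups did not overlap for 1 member, Fbln1, against 2.67% of all genes lower without overlap. Without WT day 7 replicate 1 the members' median was -0.29. Fibroblast markers had a median of -0.85 and macrophage and neutrophil markers of -0.91, with 0 of 6 called in each list, and their part in the members' values was not tested.

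Between days in WT, edgeR called 3 of 10 members higher (Fbn2, Fbln2 and Efemp2) and 0 lower, against 6.04% and 7.1% of all genes, 13.1% together. The members' median log2 change was 0.66, against 0.00 over all genes. Ranges did not overlap for 5 members that were higher (Fbn2, Fbln2, Fbln5, Efemp2 and Mfap5), against 29.8% of all genes, and for Efemp1, which was lower, against 14.1%. Fibroblast markers had a median of -0.51 with 0 of 6 called. Macrophage and neutrophil markers had a median of 1.29 with 2 of 6 called higher, and hair follicle markers of 9.94 with 6 of 6 called higher. Adipocyte markers had a median of -3.22 with 4 of 4 called lower. Their part in the members' values was not tested. Without both libraries that stood apart, an alternative added after the data had been seen, 4 members were called: the same 3 and Mfap4 (log2 change 0.78, edgeR adjusted p 0.0439), against 9.30% of all genes called higher.

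Between days in Cthrc1-/-, edgeR called 2 of 10 members higher (Fbn2 and Fbln2) and 0 lower, against 0.859% and 0.601% of all genes, 1.46% together. The members' median log2 change was 1.31, against -0.01 over all genes, and 7 of 10 had an unadjusted p under 0.05, against 9.62% of all genes in that direction. All members but Fbln1 and Efemp1, 8 of 10, were higher in every day 7 library than in every day 0 library, against 21.5% of all genes. Fibroblast markers had a median of 0.69, hair follicle markers of -0.90 and macrophage and neutrophil markers of 1.503, with 0 of 6 called in each list. Smooth muscle markers were higher in 4 of 4, with 1 called (median 0.72), and endothelial markers in 3 of 3, with 0 called and 3 at an unadjusted p under 0.05 (median 1.49). The part of these cell types in the members' values was not tested. DESeq2 called 6 members higher (Fbn1, Fbn2, Fbln2, Fbln5, Mfap4 and Mfap5), where it called 5.23% of all genes higher. Without both libraries that stood apart, edgeR called 6 as well (Fbn2, Fbln2, Fbln5, Efemp2, Mfap4 and Mfap5), against 4.93% of all genes called higher, with a median of 1.02.

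The interaction was called for 0 of 10 members by edgeR and by DESeq2, where edgeR called 0.014% of all genes and DESeq2 4.76%. An unadjusted edgeR p under 0.05 was reached by 0 of 10, against 15.1% of all genes. The members' median interaction was 0.60, against 0.02 over all genes, and that of Eln was the largest. The comparison of genotypes at day 0 and the comparison of days in Cthrc1-/- share the Cthrc1-/- day 0 libraries.

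Set against other fibroblast transcripts of the same library, the 10 members summed to 58.5, 41.8 and 54.8 FPKM per 1000 FPKM of fibroblast markers in WT day 0 and 80.4, 103 and 174 in Cthrc1-/- day 0. The day 7 sums were 86.4, 105 and 99.1 in WT and 115, 136 and 118 in Cthrc1-/-. The WT day 0 libraries were below all others. For Eln alone the range at day 0 was 8.62 to 11.4 per 1000 in WT, below the 13.6 to 19.0 of Cthrc1-/-. Relative to the sum of these markers, the member sum and Eln were thus higher in Cthrc1-/- than in WT at day 0, the reverse of their order in FPKM. Lum, a small part of that sum, was 267 to 315 FPKM in WT day 0 and 27.0 to 168 FPKM in Cthrc1-/- day 0. The order relative to single markers was not examined and may differ from that relative to the sum.

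Over the 12 libraries, the 5 genes with the highest Pearson correlation of log2(FPKM + 1) with Eln were C1qtnf3 (0.985), Lum (0.971), Mmp14 (0.968), Zfp383 (0.964) and Adam33 (0.964). These values describe 12 libraries in 4 groups, and the genes share each library's depth and cell makeup. C1qtnf3, which encodes a secreted protein, was 48.1 to 67.5 FPKM in WT day 0 and 2.38 to 23.3 FPKM in Cthrc1-/- day 0. Among the members themselves, correlations ran from -0.281 for Fbn2 with Efemp1 to 0.960 for Fbn1 with Mfap5, and Eln was at 0.922 with Mfap4 and 0.318 with Efemp2.

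Other genes of the pathway were grouped by role. Of 14 microfibril and assembly genes 10 were tested, and between days in WT 1 was called higher and 3 lower, against 6.04% and 7.1% of all genes. Emilin1, which encodes a glycoprotein at the border of elastin and microfibrils, was 5.56, 4.70 and 5.74 FPKM at day 0 and 55.9, 17.5 and 9.92 FPKM at day 7 and rose by 2.27 on the log2 scale (SE 0.57, edgeR adjusted p 0.0306). Without WT day 7 replicate 1 the Emilin1 change was 1.23 (edgeR adjusted p 0.0312). The latent TGF-beta binding protein genes Ltbp1, Ltbp3 and Ltbp4, whose products bind microfibrils, had log2 changes of -1.18, -0.46 and -0.96 (edgeR adjusted p 0.0416, 0.0225 and 0.0216). Over 23 alternatives the Emilin1 and Ltbp4 calls were each lost in 4, that of Ltbp1 in 13 and that of Ltbp3 in 10, and all 3 Ltbp calls were lost without WT day 7 replicate 1 (edgeR adjusted p 0.125, 0.105 and 0.0716 for Ltbp1, Ltbp3 and Ltbp4). Between genotypes at day 0, 1 of the 10 tested was called, lower, against 2.26% of all genes. It was Mfap2, the gene of the microfibril protein MAGP-1, with a log2 change of -1.54 (SE 0.33, edgeR adjusted p 0.0361). Mfap2 was 66.7, 70.7 and 66.2 FPKM in WT and 34.5, 26.6 and 12.8 FPKM in Cthrc1-/-, and its call was lost in 10 of 23 alternatives.

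Of 6 crosslinking genes 5 were tested and 1 was called, higher between days in WT, against 6.04% of all genes. Loxl3, a lysyl oxidase-like enzyme, was 2.14, 1.39 and 2.51 FPKM in WT day 0 and 25.9, 12.4 and 4.03 FPKM in WT day 7 and rose by 2.69 on the log2 scale (SE 0.59, edgeR adjusted p 0.0192; lost in 4 of 23 alternatives). Without WT day 7 replicate 1 the Loxl3 change was 1.89 (edgeR adjusted p 0.0344). Lox itself, which oxidises lysines of elastin and collagen, was 232 FPKM in WT day 7 replicate 1 and 11.98 to 43.6 FPKM in the other day 7 libraries, and its change in WT did not pass (edgeR adjusted p 0.158). Of 8 elastin-degrading proteases 6 were tested and 1 was called, higher at day 7 in WT, against 6.04% of all genes. It was the gelatinase gene Mmp9, with a log2 change of 2.98 (SE 0.86, edgeR adjusted p 0.0467). Mmp9 was 2.43, 2.32 and 3.04 FPKM in WT day 0 and 49.2, 13.1 and 3.44 FPKM in WT day 7, and its call was lost in 15 of 23 alternatives, among them the fit without WT day 7 replicate 1 (log2 change 1.54, edgeR adjusted p 0.138). All 6 integrin genes were tested and 1 was called, lower in Cthrc1-/- at day 0, against 2.26% of all genes. It was Itgb5, a partner of integrin alpha V, with a log2 change of -0.64 (SE 0.12, edgeR adjusted p 0.0235). Itgb5 was 36.9, 37.5 and 35.7 FPKM in WT and 26.5, 24.4 and 24.9 FPKM in Cthrc1-/-, and its call was lost in 7 of 23 alternatives. Between genotypes at day 7, between days in Cthrc1-/- and in the interaction, edgeR called 0 genes of these 4 roles. The shares of all genes called were 0.021%, 1.46% and 0.014% in that order.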

How the data were processed

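The authors' deposited table gives a whole-number count and an FPKM per gene and sample. Cutadapt 1.9, HISAT2 2.0.4, UMI-tools, StringTie 1.3.4d and the build GRCm38 are named in the submitters' processing notes, and the program behind the counts is not given in the sources used here. Per the labels' protocols, libraries were made from oligo(dT)-selected RNA with dUTP strand marking and molecular identifiers and read as pairs. A deposited count of 0 carries 0.0001 FPKM and was read as 0. Positions came from GENCODE M21 (GRCm38), which named 55141 of 55401 IDs, and promoters from RefSeq (GRCm38.p6).

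Counts entered 1 edgeR 4.0.16 quasi-likelihood fit (R 4.3.3, TMM, two-sided) of 4 group means over all 12 samples, on the 14313 genes with a mean of at least 1 FPKM, all 10 members included. P-values were adjusted over these genes by Benjamini-Hochberg, and a gene was called under 0.05. An SE was derived from the log2 change and its F statistic. The fit was run on simulated counts with the same spread for every gene and changes set in WT day 7 alone. The real libraries spread more unevenly, so that run does not measure errors of the calls reported here. Alternatives used DESeq2 1.42.0, limma 3.58.1, other scalings, filters and samples, counts divided by 4, a replicate block, and each library left out. All members were described, and pathway genes were named if called; Lox and the ratios were added after their values were seen. Members and lists were chosen with earlier results of these data known. The labels give no batch.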

Additional observations from a re-analysis of the deposited data

How the results depend on the processing

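Each count of members called is followed by the share of all genes called in the same fit. Between genotypes at day 0, where edgeR called 0 (5.78%), DESeq2 called 5 (19.5%), a fit with the replicate block 2, Fbn1 and Fbln2 (6.17%), and fits leaving out 1 library 0 to 3 (0.126% to 15.00%). Between days in WT the count of 3 (13.1%) became 1 with no filter on FPKM (3.77%) and 1 to 3 when 1 library was left out (3.68% to 21.0%). The WT call of Efemp2 was lost with the replicate block (log2 change 1.65, edgeR adjusted p 0.0584). Between days in Cthrc1-/- the count of 2 (1.46%) became 6 with DESeq2 (9.84%), 4 with limma on log2(FPKM + 1) (5.41%) and on log2(FPKM + 0.1) (5.40%), and 3 with total-count scaling, Mfap5 added (5.22%). It became 1 with no filter (0.464%), 1 with a mean of at least 5 FPKM, where Fbn2 was not tested (2.52%), and 1 with only the groups compared (0.622%). It was 6 without both libraries that stood apart (11.5%) and 0 to 4 when 1 library was left out (0.0349% to 6.36%). When 1 library was left out, the count stayed at 0 between genotypes at day 7 (0% to 0.0279%) and in the interaction (0% to 1.69%). Same-numbered replicates had correlations of deviations from -0.232 to 0.426, and differently numbered ones from -0.453 to 0.520. With so few replicates these values do not show whether the numbers mark pairs. Of 1135 member values under alternatives, 28 turned sign, 0 of them called. Fbln1 between days turned in WT to 0.0603 with total-count scaling and to 0.0413 and 0.0424 with limma on log2(FPKM + 1) and log2(FPKM + 0.1). The all-gene medians in those fits were higher, at 0.196, 0.137 and 0.165. In Cthrc1-/- Fbln1 turned to 0.14, 0.17 and 0.18 under the same settings, to 0.0437 with a mean of at least 5 FPKM and to 0.00163 with only the groups compared. The all-gene medians there were 0.158, 0.126, 0.156, 0.0141 and 0.0232. Fbln1 thus lay above the median with limma and with a mean of at least 5 FPKM. With limma on the same scales Eln between genotypes at day 7 turned to 0.0418 and 0.0439, below the all-gene medians of 0.0609 and 0.0746 in those fits. On log2(FPKM + 0.1) Fbn2 at day 0 turned to 0.00749, below the all-gene median of 0.0465. Without both libraries that stood apart the interaction turned to -0.13 for Fbln1 and 0.19 for Efemp2. Leaving out 1 library gave signs of both kinds between genotypes for Fbn2 at day 0 (-0.46 to 0.23) and Eln at day 7 (-0.34 to 0.31), and between days for Eln (-0.72 to 0.00882) and Fbln1 (-0.19 to 0.00299) in WT and for Fbln1 (-0.29 to 0.34) and Efemp1 (-1.08 to 0.0235) in Cthrc1-/-. It did so for the interaction of Fbn2 (-0.67 to 0.0208), Fbln1 (-0.16 to 0.47), Efemp1 (-0.0238 to 1.08) and Efemp2 (-1.11 to 0.35). The cause of these shifts was not tested.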
